A study of Mus musculus with 8 samples.

Results

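The major urinary protein genes Mup3, Mup10, Mup11, Mup18 and Mup22 were followed in RNA from purified liver mitochondria of young and old mice. Their members were found through the transcript identifiers of the count table: 10 of its 8688 transcripts belong to these 5 genes, and 37 transcripts belong to 19 Mup genes in all. The 5 genes were chosen from measured values of these same libraries. They are the Mup genes that passed an adjusted p of 0.05 in the comparison of the ages, so their levels and fold changes are given as a description, with no test. The values for the other Mup genes come from the same comparison and are likewise described only.

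The animals were wild-type (WT) C57BL/6N mice of 12 weeks (12 W) and 65 weeks (65 W), with 4 libraries per age from livers that the labels number as biological replicates. Mitochondria were freed by homogenisation and differential centrifugation and then cleaned on a sucrose gradient, after a nuclease step that the study used against nucleic acids outside the organelle. Their RNA was sequenced as Nanopore PCR-cDNA libraries, 8 barcodes on one flow cell. The study's legend calls the 12 W mice female and gives no sex for the 65 W mice, so that sex and age cannot be told apart in these libraries. The libraries are named 12W-1 to 12W-4 and 65W-1 to 65W-4 by age and replicate.

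Major urinary proteins are small lipocalins, a fold that encloses a hydrophobic pocket. Hepatocytes make them and secrete them into the blood, from which they pass the kidney into the urine and carry volatile pheromones. Their messenger RNAs are encoded in the nucleus and translated at the endoplasmic reticulum. In mouse liver the family is known for higher expression in males than in females, under control of the rhythm of growth hormone through STAT5 and with input from androgens and glucocorticoids. Most members are so alike that single reads cannot always be placed on 1 gene.

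In GRCm38 the cluster lies on chromosome 4 from 59956804 to 62150863, a span of 2.19 Mb with 22 Mup genes and 27 pseudogenes in GENCODE release M21. All 5 genes lie on the minus strand and have 7 exons: Mup10 (ENSMUSG00000078680.3) at chr4:60578260-60582199, Mup11 (ENSMUSG00000073834.10) at chr4:60658466-60662411, Mup22 (ENSMUSG00000110439.1) at chr4:60817589-60821463, Mup18 (ENSMUSG00000078674.2) at chr4:61670177-61674136 and Mup3 (ENSMUSG00000066154.11) at chr4:62083476-62087342. The coding sequence of Mup18 differed from that of Mup11 by 1 base of 546, from that of Mup22 by 1 base and from that of Mup10 by 2 bases and a 3 nt gap. It was as close to genes outside the 5, with 1 base and a 3 nt gap of difference from Mup19 and 2 bases and a 3 nt gap from Mup2. Mup3 stood apart from Mup18, with 82 different bases, a 9 nt gap and 84.98% identity. A stretch of 90 nt within the coding part of exon 2 shows this. It is printed for Mup18 (chr4:61673495-61673584, coding bases 104 to 193) and Mup3 (chr4:62086840-62086929, coding bases 113 to 202), both on the minus strand and written 5′ to 3′. Capitals mark the 26 positions at which these 2 sequences differ.
Mup18: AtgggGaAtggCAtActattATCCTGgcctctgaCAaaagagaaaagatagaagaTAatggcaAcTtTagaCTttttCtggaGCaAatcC
Mup3: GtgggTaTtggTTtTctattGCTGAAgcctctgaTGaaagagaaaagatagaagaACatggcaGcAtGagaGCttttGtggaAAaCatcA
Mup10, Mup11, Mup22, Mup19 and Mup2 have exactly the Mup18 sequence in this stretch. Across the whole transcript, words of 31 bases from each of the 19 Mup genes were compared with all annotated Mup genes and pseudogenes. Of the words in Mup3, 65.86% occurred in no other Mup gene or pseudogene. This share was 10.14% for Mup10, 7.11% for Mup11, 6.89% for Mup18 and 0% for Mup22, Mup19, Mup2, Mup15 and Mup9. The Mup3 count therefore rests on sequence of its own, whereas counts of the other 4 genes depend on how the counting divided reads between near-identical copies. The family sum does not depend on how reads were divided among these genes.

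The promoters are shown because these members were chosen by the same comparison of the ages. Whether they vary together was not tested. RefSeq on GRCm38.p6 holds a promoter, from 250 bases before to 50 after the start, for 4 of the 5 genes. Mup22 has no entry. Mup18 (chr4:61674045-61674344) and Mup3 (chr4:62087268-62087567) are printed on the minus strand, 5′ to 3′. Capitals mark the 6 runs of at least 12 bases that all 4 promoters share.
Mup18: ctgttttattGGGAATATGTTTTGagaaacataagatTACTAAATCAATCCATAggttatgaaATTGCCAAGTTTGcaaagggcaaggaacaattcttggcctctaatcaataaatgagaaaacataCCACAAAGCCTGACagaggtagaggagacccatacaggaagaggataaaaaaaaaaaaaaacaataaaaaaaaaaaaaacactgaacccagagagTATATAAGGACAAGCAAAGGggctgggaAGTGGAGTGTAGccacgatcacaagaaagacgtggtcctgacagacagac
Mup3: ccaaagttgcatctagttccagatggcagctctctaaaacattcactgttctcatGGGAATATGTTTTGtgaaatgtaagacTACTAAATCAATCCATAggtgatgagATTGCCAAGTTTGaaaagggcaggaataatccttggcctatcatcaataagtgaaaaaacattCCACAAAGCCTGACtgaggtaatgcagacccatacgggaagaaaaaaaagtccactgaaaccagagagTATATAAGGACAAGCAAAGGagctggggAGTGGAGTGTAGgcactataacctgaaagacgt
The longest shared run has 20 bases, reads tatataaggacaagcaaagg and begins 28 bases before the annotated start in Mup18, 30 before in Mup10, 2 before in Mup11 and 11 before in Mup3. Of 32851 promoters in the table, 12 held it, and 11 of these were among the 14 Mup promoters. Both strands were searched for a few short motifs. The STAT5 motif TTCNNNGAA was found in 8.3% of all promoters and in 0 of the 14 Mup promoters, and the C/EBP motif TTGCNNAA in 10.8% and 0 of 14. The FOXA motif TGTTTNC was found in 20.49% of all promoters and in 13 of 14 Mup promoters, Mup3 being the exception. The Mup promoters are much alike, and most of these matches read GAAAACA. Matches in them, or their absence, are therefore not independent of one another. The glucocorticoid receptor motif TGTTCT was found in 18.97% of all promoters and in 2 of 14 Mup promoters, of which Mup3 is one. The TATA box TATAAA was found in 13.62% of all promoters and in 2 of 14, neither of them a member. The search took these exact letters only, so the tatataagg that opens the longest shared run was not counted. The windows hold only the bases next to the start, and the libraries carry no measurement of factor binding.

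The deposited values are counts per transcript, without normalisation. Total counts were 104554 to 191092 per library at 12 W and 12630 to 105252 at 65 W, of which 74.8 to 82.4% lay on mitochondria-encoded mRNAs. Mup levels were therefore related to the nuclear counts, Mup counts included, leaving out 17 rows that copy mitochondrial genes. They are given as counts per 1000 of these nuclear counts. There were 7604 to 20669 such counts per 12 W library and 1523 to 11091 per 65 W library. They made up 10.1% ± 2.78 of all counts at 12 W and 11.02% ± 3.05 at 65 W (SD, n = 4; two-sided exact permutation test, p = 0.686, where 0.0286 is the smallest p possible). The difference of 0.874 percentage points lay within the spread between libraries and changed sign without 12W-2 (-0.0839), without 65W-3 (-0.245) and with the copies counted as nuclear (-0.623). Because the PCR libraries hold no molecular identifiers, intervals computed from reads cover only counting error. All 15 hepatocyte markers had a row and summed to 163 to 207 per 1000 at 12 W and 130 to 179 at 65 W. Markers of immune cells (1.47 to 3.99 over all libraries), endothelial cells (at most 0.491), stellate cells (at most 1.23), cholangiocytes (at most 0.0902) and erythroid cells (at most 2.82) were low, and Ptprc, S100a8, S100a9, Pecam1, Krt7, Epcam, Sox9 and Hba-a1 had no row. In a whole fraction, more Mup RNA per hepatocyte and more co-purified RNA of Mup-rich hepatocytes cannot be told apart.

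Together the 5 genes stood higher in every 65 W library than in any 12 W library. Their summed level was 10.5, 17.1, 9.62 and 17.0 counts per 1000 in 12W-1 to 12W-4 and 28.2, 32.6, 29.5 and 40.3 in 65W-1 to 65W-4. The means were 13.5 ± 4.05 and 32.6 ± 5.42 (SD, n = 4). The groups did not overlap, and the lowest 65 W library, 65W-1, is also the one with the fewest reads. On the scale of the edgeR fit over all nuclear genes, with TMM factors, the sum differed by a log2 fold change of 1.503 (standard error 0.24). Over the 98 nuclear genes that passed the filter on low counts the median log2 fold change was 0.02. All 5 members passed that filter. Of the 98 genes, 7 were called higher at 65 W, a share of 7.14%, and the 5 members are among these 7 because that call is what chose them. In either direction 9 of the 98 genes were called, or 9.18%. In 4 of the 98 genes, or 4.08%, every 65 W library lay above every 12 W library, and Mup18, Mup11 and Mup3 are 3 of the 4, while in 9 genes, or 9.18%, every 65 W library lay below.

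**Figure D1:**
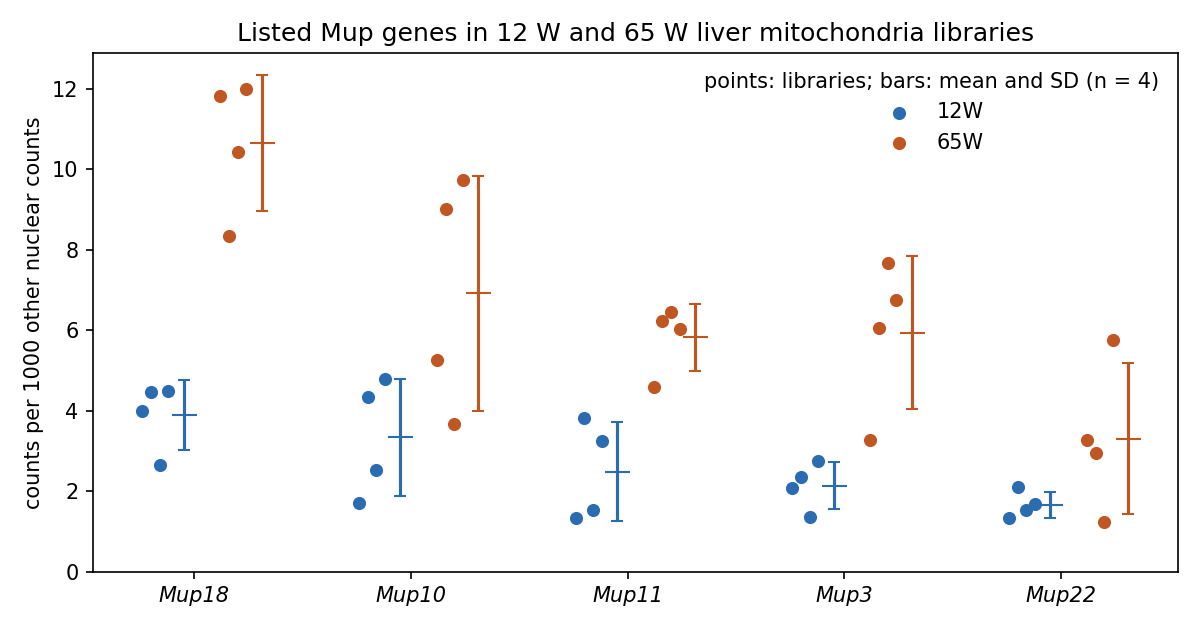
Level of each of the 5 Mup genes by library, with 12 W and 65 W side by side. The vertical axis is counts per 1000 nuclear counts other than copies, Mup counts included. Points are libraries and bars are the group mean ± SD (n = 4). Mup18, Mup11 and Mup3 show no overlap between ages, while Mup10 overlaps and Mup22 in 65W-3 (1.23) lies below all 12 W libraries.

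Mup18, the member with the most reads, encodes one of the near-identical central urinary proteins. It had 3.99, 4.47, 2.66 and 4.50 counts per 1000 at 12 W and 11.8, 8.35, 10.4 and 12.0 at 65 W. These rest on 65, 34, 45 and 93 reads and on 18, 51, 34 and 133 reads. The lowest 65 W value, in 65W-2, was above the highest 12 W value, in 12W-4. The 18 reads of 65W-1 give a 95% Wilson interval of 7.49 to 18.6 per 1000. The means were 3.90 ± 0.865 and 10.6 ± 1.68 (SD, n = 4), a ratio of 2.73, with a log2 fold change of 1.66 (standard error 0.23). All its counts lay on 1 transcript of 930 nt, ENSMUST00000098040.3.

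Mup3 is the member with the most divergent sequence and the one whose reads are most its own. Its level was 2.09, 2.37, 1.36 and 2.76 counts per 1000 at 12 W and 3.28, 6.06, 7.68 and 6.76 at 65 W. Every 65 W library was again above every 12 W library, although 65W-1 came close with only 5 reads. The means were 2.14 ± 0.591 and 5.94 ± 1.89 (SD, n = 4). The log2 fold change of 1.76 (standard error 0.28) was the highest among the 5, but the members' standard errors of 0.23 to 0.35 exceed most of the gaps between them. Mup3 had 3 transcripts in the table, with 127, 125 and 22 counts over the 8 libraries. The 2 larger ones were unevenly divided: ENSMUST00000084531.10 had 20 counts and ENSMUST00000107472.7 had 10 in 12W-1, against 2 and 13 in 12W-2, so only the gene sum is used.

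Mup11 encodes another of the central proteins. Its level was 1.35, 3.81, 1.53 and 3.24 counts per 1000 at 12 W and 4.60, 6.22, 6.45 and 6.04 at 65 W. The 12 W libraries fell into lower values in 12W-1 and 12W-3 and higher ones in 12W-2 and 12W-4, all of them under the lowest 65 W library. The means were 2.48 ± 1.23 and 5.83 ± 0.837 (SD, n = 4), with a log2 fold change of 1.53 (standard error 0.34). Its 3 transcripts held 224, 48 and 5 counts over the 8 libraries.

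Mup10, also a central type member, had 1.72, 4.34, 2.54 and 4.79 counts per 1000 at 12 W and 5.25, 9.003, 3.68 and 9.74 at 65 W. The ages overlapped here, as 65W-3, with 12 reads, lay below 12W-2 and 12W-4. The means were 3.35 ± 1.46 and 6.92 ± 2.92 (SD, n = 4), with a log2 fold change of 1.39 (standard error 0.35).

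Mup22 had the fewest reads of the 5 and shares every 31-base word with another Mup gene or pseudogene. It had 1.35, 2.10, 1.53 and 1.69 counts per 1000 at 12 W and 3.28, 2.95, 1.23 and 5.77 at 65 W. The 65 W libraries were spread widely, from 4 reads in 65W-3, below all 12 W libraries, to 64 reads in 65W-4, the highest value of all. The means were 1.67 ± 0.321 and 3.31 ± 1.87 (SD, n = 4). Its log2 fold change of 1.33 (standard error 0.34) was the lowest of the 5. Below it among the Mup genes, and outside the choice, came Mup2 at 0.89 (standard error 0.31). Without 65W-4 the value of Mup22 was 0.85.

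Per kilobase of transcript, the order of the mean levels at 12 W was Mup18 (4.198 ± 0.930 counts per 1000 per kb), Mup10 (3.61 ± 1.57), Mup11 (2.67 ± 1.32), Mup3 (2.28 ± 0.630) and Mup22 (1.94 ± 0.373; SD, n = 4 for each). Each neighbouring pair in this order differed by less than the larger of its SDs. At 65 W the order was Mup18 (11.5 ± 1.81), Mup10 (7.46 ± 3.15), Mup3 (6.34 ± 2.02), Mup11 (6.26 ± 0.900) and Mup22 (3.84 ± 2.18). Here only Mup18 and Mup10, and Mup11 and Mup22, were further apart than the larger SD of the pair.

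The whole family, which is free of the division of reads between copies, was also higher on average at 65 W, by less than the 5 genes. It had 31.7, 48.8, 35.7 and 66.9 counts per 1000 at 12 W and 54.5, 76.4, 64.2 and 91.1 at 65 W. On this scale, which uses no TMM factors, the ages overlapped, because 12W-4 stood above 65W-1 and 65W-3. The TMM factors of the fit were 1.12 for 12W-4, 0.85 for 65W-1 and 0.90 for 65W-3. They lower the level of 12W-4 and raise those of the other named libraries. Lars2 alone took 13.3%, 36.7% and 22.1% of the nuclear counts in these libraries, so the overlap belongs to this scale. The means were 45.8 ± 15.9 and 71.5 ± 15.8 (SD, n = 4), with a log2 fold change of 0.85 (standard error 0.26). The sum contains the 5 genes that were chosen for being higher. The 14 other Mup genes summed to 32.2 ± 12.5 at 12 W and 38.9 ± 10.7 at 65 W (SD, n = 4), a ratio of 1.21, and overlapped. Without the filter on low counts the log2 fold change of the family sum was 0.10, and the median of the same 98 genes moved by -0.79. The share of the 5 genes in the family was 30.1% ± 4.68 at 12 W, from 25.4 to 35.0%, and 46.2% ± 4.01 at 65 W, from 42.6 to 51.8% (SD, n = 4). A higher share at 65 W follows at least in part from that choice. It also depends on how reads were divided between near-identical copies, so it is no result about the make-up of the family.

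**Figure D2:**
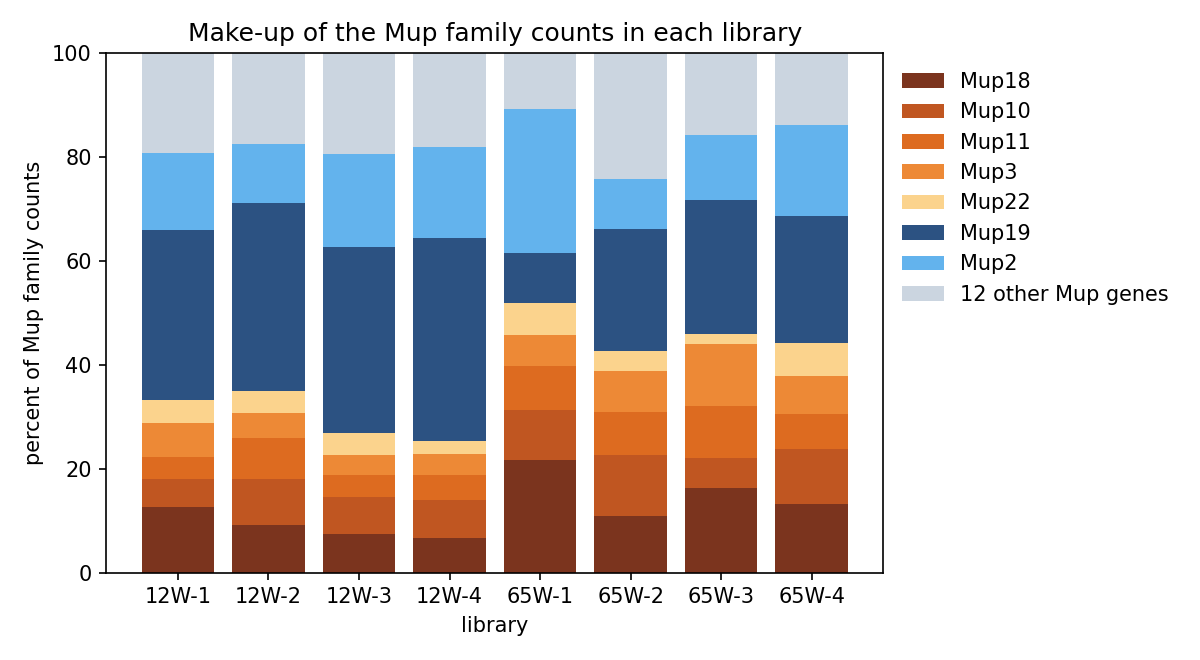
Make-up of the Mup counts by library: stacked shares of the family's counts (percent, vertical axis) on each of the 5 listed genes, Mup19, Mup2 and the 12 other Mup genes, for the 4 libraries of 12 W and of 65 W. The 5 genes take 25.4 to 35.0% at 12 W and 42.6 to 51.8% at 65 W, while Mup19 goes from a mean of 35.9% to 20.9%. The 5 genes were chosen for being higher at 65 W, and the shares depend on how reads were divided between copies.

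Mup19, with 1476 counts the most abundant Mup gene in the table, is a central type gene that was not among the 5. Its level was 10.4, 17.6, 12.7 and 26.0 counts per 1000 at 12 W and 5.25, 18.0, 16.6 and 22.3 at 65 W, with overlapping ages and a log2 fold change of 0.20 (standard error 0.32). Its share of the family was 35.9% ± 2.53 at 12 W and 20.9% ± 7.55 at 65 W (SD, n = 4). A lower share at 65 W follows at least in part from the choice of the 5 genes. Mup2 had mean levels of 7.09 ± 3.18 and 11.6 ± 4.56 per 1000 (SD, n = 4), and its groups overlapped. How the counting divided reads between these genes and the near-identical members was not tested.

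Less abundant Mup genes varied without a common direction. Mup14 was listed at 0 in 12W-2, 12W-4 and 65W-3 but had 24 and 55 counts in 12W-1 and 12W-3 and 4, 68 and 43 in 65W-1, 65W-2 and 65W-4. Its log2 fold change of 2.24 had a standard error of 0.94. Mup15 was lower on average at 65 W, with a log2 fold change of -0.82 (standard error 0.56), and Mup17 stood at 0.38 (standard error 0.44). The 6 other Mup genes that passed the filter had a median log2 fold change of 0.48. Mup20, which encodes the male pheromone darcin and was named here after its values were seen, had only 0, 1, 5 and 0 counts at 12 W and 1, 4, 1 and 4 at 65 W. Rows of 6 Mup pseudogenes held 35 counts in all.

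**Figure D3:**
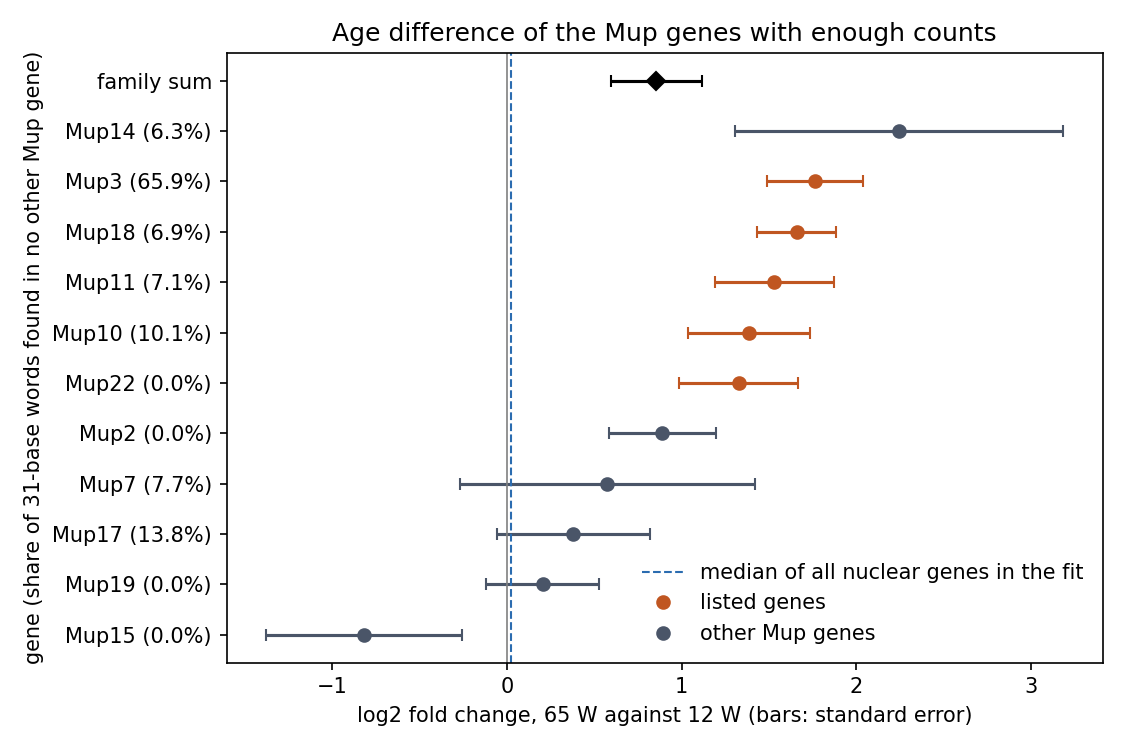
Log2 fold change, 65 W against 12 W, with standard error (horizontal axis) for the 11 Mup genes that passed the filter and the family sum. The number after each gene is its share of 31-base words found in no other Mup gene or pseudogene. The dashed line is the median of all 98 genes (0.02). The 5 listed genes lie between 1.33 and 1.76 and the family sum at 0.85.

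Genes around the family were described from lists of liver genes with known sex bias or function. The female-biased list comes first, and the part of sex, which cannot be told apart from age here, was not tested. Of its 25 genes, 22 had a row, and 2 were tested and both fell. Both passed the filter on low counts only through their 12 W libraries, so the filter favoured genes of the list that fall. A1bg, a plasma glycoprotein of female mouse liver, had 66, 38, 65 and 114 counts at 12 W and 0, 3, 3 and 12 at 65 W, and it fell by 2.36 on the log2 scale (standard error 0.35; edgeR quasi-likelihood test, adjusted p = 0.000757). Cyp3a41a, a female-specific cytochrome P450, had 61, 29, 58 and 102 counts against 1, 1, 0 and 15, and fell by 2.32 (standard error 0.46; edgeR, adjusted p = 0.00464). Every 12 W library was above every 65 W library for both. Of the 98 genes 2 were called lower at 65 W, a share of 2.04%, and these are A1bg and Cyp3a41a. Cyp2c40, the cytochrome P450 with the next highest counts in the list, was too low to test and did not share this direction, with 8, 0, 8 and 9 counts at 12 W and 2, 8, 0 and 10 at 65 W, or means of 0.350 ± 0.234 and 0.881 ± 0.618 per 1000 (SD, n = 4). Sult3a1, named after its values were seen, had 1 and 6 counts. Summed, the list had 10.7 to 14.4 counts per 1000 at 12 W and 1.23 to 5.14 at 65 W. Of its 752 counts at 12 W, A1bg held 283 and Cyp3a41a 250, so these genes weigh most in the sum. The median log2 fold change of its 2 tested genes was -2.34.

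Of 19 male-biased genes, 9 had a row and 0 had enough counts to be tested. They summed to 22 counts at 12 W, or 0.131 to 0.491 per 1000, and 34 counts at 65 W, or 1.23 to 1.64 per 1000. Of the 34 counts, 17 lay on Serpina1e, a male-biased antitrypsin gene named after its values were seen, which had 0 counts in every 12 W library. In 65W-3 all 4 counts of the list were on Serpina1e. The most abundant others were Ugt2b1, with 7 and 10 counts, and Gstp1, with 11 and 1. The list of growth hormone signalling and liver transcription regulators had 17 of 22 genes with a row and 0 tested, with 92 counts at 12 W and 34 at 65 W. Its most abundant genes were the growth hormone target Igf1, with 26 and 14 counts, the growth hormone receptor Ghr, with 14 and 5, and the nuclear receptor Rxra, with 10 and 2. The depth did not allow a test of the regulators known for the Mup genes.

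Every 65 W library had a higher summed level of the 5 Mup genes than any library of the young mice. Each also had a lower summed level of the female-biased list than any of those. The 5 Mup genes were chosen for being higher at 65 W, and the gene lists were chosen with earlier results of these data known. Among the 65 W libraries, 65W-4 had the highest level of both, at 40.3 and 5.14 counts per 1000. The summed male-biased levels were higher in the 65 W libraries, but on few reads. They rest on 8, 1, 4 and 9 reads in 12W-1 to 12W-4 and on 2, 10, 4 and 18 in 65W-1 to 65W-4. Serpina1e held 0, 2, 4 and 11 of these 65 W reads. The part of sex in the Mup levels was not tested.

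The Mup proteins belong to the lipocalins, of which other liver members were listed as well. Of 11 listed, 8 had a row and 2 were tested, of which 0 passed the threshold in edgeR, DESeq2 or limma-voom, and 0 had an unadjusted p under 0.05 in edgeR. Rbp4, the plasma carrier of retinol, stood at 0.05 on the log2 scale (edgeR, adjusted p = 0.962), and Ambp, the precursor of alpha-1-microglobulin, at -0.18 (edgeR, adjusted p = 0.844). Orm1, an acute phase lipocalin, had 66 counts at 12 W and 22 at 65 W and was too low to test.

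Among the secreted proteins of hepatocytes, which share the site of synthesis with the Mup proteins, 36 of 36 genes had a row and 31 were tested. Of these, 2 rose, 0 fell and 29 did not pass, and the median log2 fold change was -0.07, against 0.02 over all 98 genes. Over all 98 genes 7.14% were called higher, so 2 of 31 is near that share and is no result about the list. Both genes that rose encode serpins, inhibitors of serine proteases. Serpina3k had 2.70, 4.08, 2.66 and 3.44 counts per 1000 at 12 W and 3.28, 6.55, 6.14 and 9.47 at 65 W, and its log2 level rose by 1.34 (standard error 0.25; edgeR, adjusted p = 0.00284). Serpina1c had 2.95, 3.02, 4.37 and 3.05 at 12 W and 5.25, 5.07, 5.83 and 5.59 at 65 W, and rose by 0.92 (standard error 0.20; edgeR, adjusted p = 0.00819). Serpina1c lost its call in 9 of 18 alternatives and without any one of 12W-1, 12W-2, 65W-2 or 65W-3, where the adjusted p from edgeR lay between 0.052 and 0.0675. Serpina1c is also one of several near-identical antitrypsin genes. The most abundant genes of the list gave log2 fold changes of -0.05 for albumin (Alb, adjusted p = 0.94), -0.30 for the apolipoprotein Apoe (adjusted p = 0.48) and -0.44 for Apoa2 (adjusted p = 0.212, all from edgeR).

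**Figure D4:**
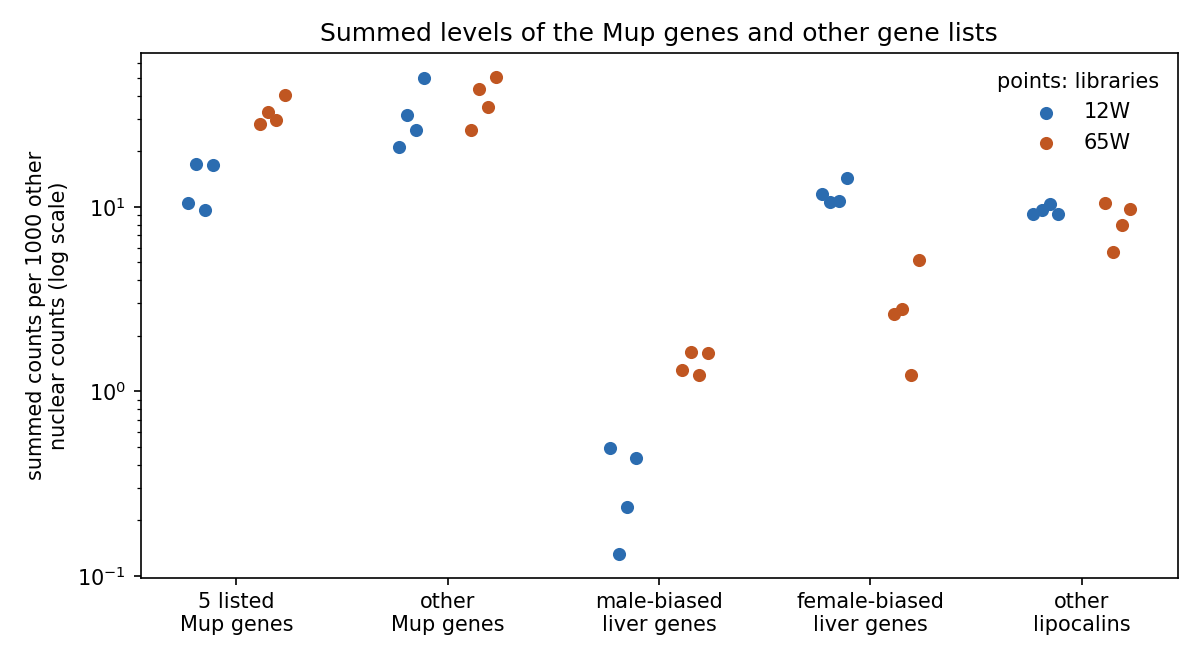
Summed level in counts per 1000 nuclear counts other than copies, Mup counts included (vertical axis, log scale), by library. Shown are the 5 listed Mup genes, the other Mup genes, the male-biased and female-biased lists and the other lipocalins. Points are libraries of 12 W and 65 W. The 5 Mup genes (9.62 to 17.1 against 28.2 to 40.3) and the female-biased genes (10.7 to 14.4 against 1.23 to 5.14) part in opposite directions, and the other Mup genes and the other lipocalins overlap.

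The profile of the family sum across the 8 libraries was compared with that of 87 genes outside the family, as the root mean square difference of log2 levels, each centred on its own mean. The closest were Serpina3k (0.31), Tpt1 (0.36), the translationally controlled tumour protein, the ferritin heavy chain Fth1 (0.41), the ferritin light chain Ftl1 (0.42) and Serpina1c (0.44). These points share their libraries and depths, and the order is a description.

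The largest part of the nuclear counts lay on Lars2, the mitochondrial leucyl-tRNA synthetase, named here after its values were seen. It took 12.7 to 24.4% of them at 12 W and 11.3 to 36.7% at 65 W, with the highest share in 65W-1, and so bears on every level above. With Lars2 left out of the library size, the family sum had a log2 fold change of 0.88, against 0.85 with it.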

How the data were processed

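RNA of liver mitochondria from 4 libraries at 12 W and 4 at 65 W was analysed, grouped by the age in the labels. The authors deposited raw counts per Ensembl transcript, which came from a differential expression workflow of Epi2Me Labs and were not normalised. The submitters' processing notes name minimap2, SAMtools, edgeR and the build GRCm38 (mm10), without roles. The annotation release is not given in the sources used here. Of the 8688 rows, 8591 matched GENCODE M21; the 97 others held 0.0946% of the counts and were left out. Rows at least 80% identical over at least 100 nt to a mitochondria-encoded transcript (BLAST 2.17.0) were set aside as copies (17). Depth was 12630 to 191092 counts per library, and low depth at 65 W limits the precision there.

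Counts were summed per gene. The ages were compared by the quasi-likelihood method of edgeR 4.0.16 in R 4.3.3, with filterByExpr at a minimum count of 10, TMM factors, nuclear counts other than copies as library size and Benjamini-Hochberg adjustment at 0.05. The nuclear share was compared by an exact permutation test over 70 assignments. DESeq2 1.42.0, limma-voom (limma 3.58.1), other scalings and filters, the replicate block and leaving out libraries were alternatives. Levels are counts per 1000 nuclear counts, and 95% Wilson intervals cover counting error only. Likeness used a pseudocount of 0.5.

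The members and gene lists were chosen with earlier results of these data known. The genes named are the 5 members, up to 5 other Mup genes with the most counts, from each list the genes past the threshold (up to 4 each way) and the 3 with the most counts, and the 5 genes most like the family sum. Others are said to be chosen after their values were seen. No pair of libraries within an age agreed within sampling noise. Same-numbered libraries showed no shared deviation (correlations from -0.17 to 0.07 over 98 genes), and the main fit used no pairing. At this depth such a check cannot exclude that samples with the same number were handled together.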

Additional observations from a re-analysis of the deposited data

How the results depend on the processing

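Every log2 fold change of the 5 genes and of the family sum stayed above 0 in all alternatives run (20 for each gene and 22 for the sum). The 5 genes were chosen for being higher in these same libraries, and the sum contains them. The sign is therefore no independent check, and only the size of the values is described. The values that moved most came from the fit without a filter on low counts: 0.10 for the family sum, 0.93 for Mup3, 0.59 for Mup10, 0.70 for Mup11, 0.82 for Mup18 and 0.58 for Mup22. That fit also moved the median of the same 98 genes by -0.79, and relative to that median the family sum stood at 0.87, against 0.83 with the filter. Other scalings moved this median by -0.21 (no TMM factor), -0.19 (13 mitochondria-encoded mRNAs as library size), -0.13 (all counts), -0.13 (DESeq2) and -0.11 (RLE). Summing the 5 genes in place of the family gave 1.503. Leaving out 1 library at a time gave 0.72 to 1.16 for the family sum, 1.53 to 1.86 for Mup3, 1.102 to 1.60 for Mup10, 1.27 to 1.69 for Mup11, 1.46 to 1.68 for Mup18 and 0.85 to 1.47 for Mup22. Mup22 was 0.85 without 65W-4.

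The 9 nuclear genes called became 5 with the 13 mRNAs as library size, 5 without a filter, 2 with at least 10 counts in every library (9 genes tested) and 5 to 11 with a library left out, 5 without 65W-2. The 2 secreted protein genes called became 1 without TMM, with all counts, with at least 10 counts in every library and without both shallow 65 W libraries, 0 with the 13 mRNAs and without a filter, and 1 to 2 with a library left out. Serpina3k lost its call in 2 of 18 alternatives, with the 13 mRNAs (1.11, adjusted p = 0.242 from edgeR) and without a filter (0.54, adjusted p = 0.547 from edgeR). A1bg and Cyp3a41a kept theirs in 18 of 18. The nuclear share difference was -0.623 with copies as nuclear and -0.245 to 2.18 with a library left out (-0.0839 without 12W-2). For the other changes the cause was not tested. Leaving out Lars2 was chosen after seeing the data.

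With the replicate block the family sum was 0.89, Mup3 1.72, Mup10 1.23, Mup11 1.48, Mup18 1.68 and Mup22 1.13, with 10 genes called. No deviation shared by number was seen, though counting noise at this depth could hide one. Depth limits 65W-1 and 65W-3 most, and genes of the male-biased and regulator lists could not be tested at all.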
